A study of Mus musculus with 24 samples.

Results

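The comparison described here is the change in translation efficiency (TE) between KO and ctrl N2a cells that had both been given Torin1. It rests on 12 of the 24 libraries of the series, 3 RNA-seq and 3 Ribo-seq libraries per genotype. TE was taken as the number of ribosome footprints on a coding sequence (CDS) relative to its mRNA, and the change was tested as the interaction of assay with genotype. A transcript entered if it had over 1 CPM (counts scaled to the library total) in all 3 libraries of at least 1 condition, in both assays. Of the 10811 transcripts listed in both tables, 10509 met this and were tested.

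N2a is a mouse neuroblastoma line. The ctrl cells had received an empty Cas9 vector and the KO cells vectors for 3 guide RNAs against exons of Eif4e3, and both had been selected with puromycin in 2 rounds, so that each genotype is a selected population and not a clone. In both groups Torin1 was applied at 250 nM for 2 h before cycloheximide and harvest for the Ribo-seq. The labels give each replicate as another passage of the cells. The p-values below therefore measure the spread between passages of 1 ctrl and 1 KO population, and loss of Eif4e3 cannot be told apart from other differences between these populations. That spread was estimated per transcript over both assays together, although Ribo-seq replicates agreed less closely than RNA-seq replicates. These are bulk libraries, in which fewer cells that express a gene and less RNA per cell cannot be told apart.

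Cap-dependent initiation starts when a member of the eIF4E family binds the 5′ cap and joins the scaffold eIF4G and the helicase eIF4A in the eIF4F complex. Torin1 blocks the kinase mTOR, after which the 4EBP proteins capture eIF4E1 and keep it from eIF4G, and mRNAs with a 5′ terminal oligopyrimidine tract (TOP mRNAs, which encode ribosomal proteins and translation factors) lose ribosomes. eIF4E3 is a further cap-binding member of the family. A lower TE means that a transcript carries fewer footprints for its mRNA level than in the control, relative to all other transcripts, since each assay is scaled to its own total.

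The RNA-seq libraries held 17048750 to 28912912 counts and the Ribo-seq libraries 1289467 to 2132682, and the 10 largest transcripts took 4.16 to 5.33% of a library. Across transcripts, log CPM correlated at r = 0.995 to 0.996 between RNA-seq replicates and at r = 0.955 to 0.971 between Ribo-seq replicates, and at 0.939 to 0.963 between Ribo-seq libraries of different genotypes. The 11 listed markers of sympathoadrenal neuroblastoma had a summed level of 2068 to 2276 CPM in ctrl and 2264 to 2540 CPM in KO. The markers of fibroblasts, leukocytes, glia and epithelium that were listed summed to at most 4.07 CPM per class in any library.

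Eif4e3 itself checked the labels. Its mRNA stood at 14.3, 17.5 and 12.7 CPM in ctrl replicates 1, 2 and 3 and at 5.11, 4.58 and 4.78 CPM in KO. Its footprints stood at 23.4, 12.9 and 19.6 CPM in ctrl and at 7.35, 3.76 and 2.57 CPM in KO. The genotypes did not overlap in either assay, with all KO values at the lower end. The mRNA fell by 1.62 on the log2 scale (SE 0.16, adjusted p = 9.15e-07, edgeR quasi-likelihood test with Benjamini-Hochberg adjustment, as for all adjusted p below) and the footprints fell by 1.92 (SE 0.35, adjusted p = 0.000696). The difference of these, the TE change, was -0.30 (SE 0.41, adjusted p = 0.768), so what was left of the mRNA did not differ detectably in TE at 4 to 31 footprints per library.

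TE differed between KO and ctrl for 299 transcripts at an adjusted p under 0.05, which is 2.85% of those tested. It was lower in KO for 237 transcripts (2.26%) and higher for 62 (0.59%), so that lower TE made up 79.3% of the calls. The lower group was led by the sterol regulator Srebf2, the MHC class I heavy chains H2-D1 and H2-K1, the amino acid transporter Slc7a5 and the RNA-binding protein Ybx1, and the higher group by Tmsb10, BC004004 and Eif5. At an unadjusted p under 0.05 there were 1005 lower and 771 higher transcripts. The median change was -0.74 among the lower transcripts and 0.61 among the higher ones, against -0.00 over all transcripts tested, and 54 lower and 6 higher transcripts changed at least 2-fold in the fit.

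The footprint to mRNA ratios of KO and ctrl did not overlap in 234 of the 237 lower and 60 of the 62 higher transcripts, against 20.6% of all transcripts. The calls came from a test on the same libraries, so that this describes them and is no independent evidence. The ratios were formed from Ribo-seq and RNA-seq libraries of the same replicate number, and whether such a pair came from the same dish is not stated in the sources used here. The fitted changes and their tests do not use this match. Without 1 library the total fell from 299 to 192 (without KO RNA-seq replicate 1), 188 (without KO Ribo-seq replicate 1) or 178 (without KO Ribo-seq replicate 2), and the higher calls to as few as 28 (without ctrl Ribo-seq replicate 1). No call changed sign in any of the alternatives tried. Of the 68 calls that the naming rule in the methods takes, 19 held in each alternative and without each library, and 41 were lost in a model of all 4 conditions, among them Eif5 (adjusted p = 0.0901) and H2-Q1 (0.0576).

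**Figure D1:**
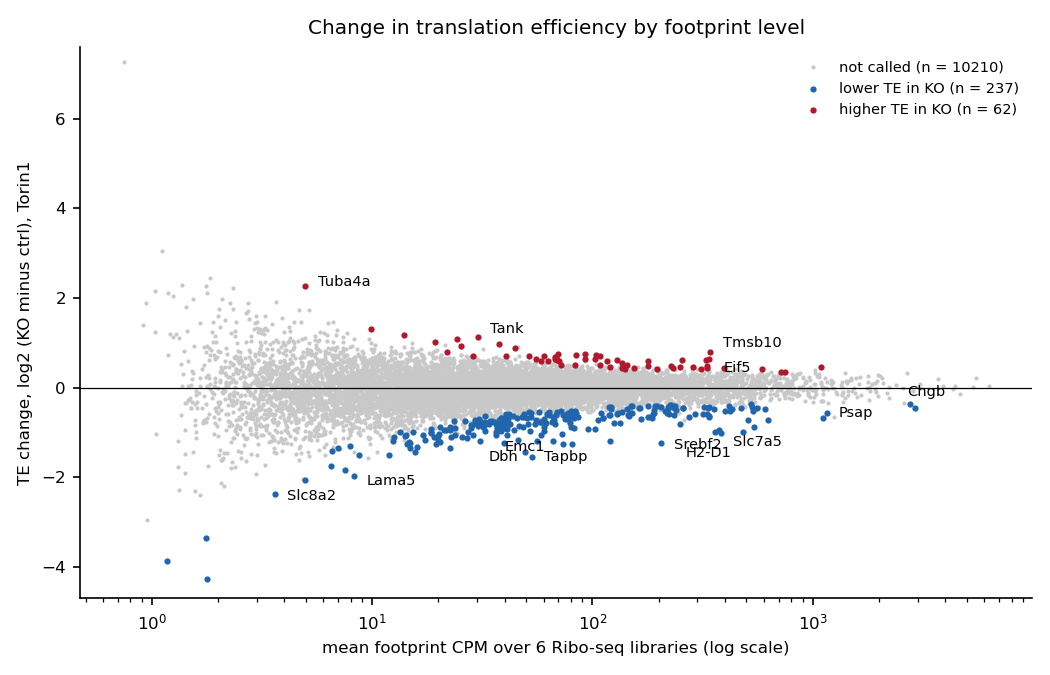
Change in TE (log2, KO minus ctrl, under Torin1) against the mean footprint level (CPM over 6 Ribo-seq libraries, log scale), 1 point per transcript, with the 237 transcripts called lower in blue, the 62 called higher in red and the 10210 others in grey. Blue points outnumber red ones, and the highest point is not a call.

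Taken by medians, the change lay in the footprints. Among the 237 lower transcripts the median footprint change was -0.75 (quartiles -0.99 and -0.58) and the median mRNA change -0.02 (quartiles -0.09 and 0.06). Among the 62 higher transcripts the median footprint change was 0.54 (quartiles 0.41 and 0.71) and the median mRNA change -0.05 (quartiles -0.15 and 0.00). In the same fit 1078 transcripts (10.3%) differed in footprints, 637 lower (6.06%) and 441 higher (4.2%), while 107 differed in mRNA (1.02%, 41 lower and 66 higher).

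**Figure D2:**
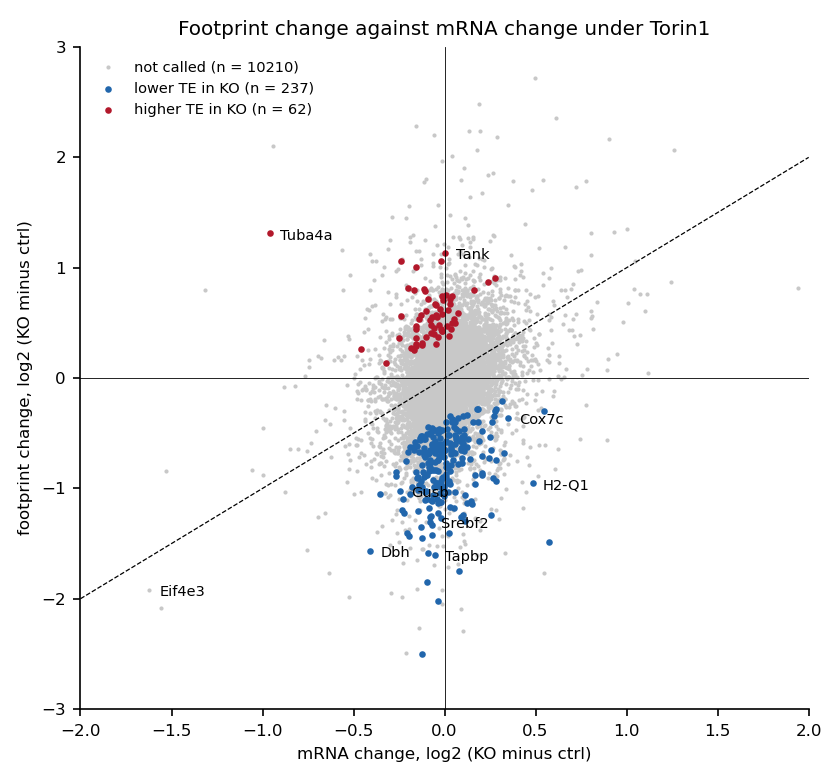
Footprint change against mRNA change (both log2, KO minus ctrl, under Torin1) for each transcript, with calls of TE coloured as before and the dashed line where both changes are equal. Called transcripts sit near an mRNA change of 0, below or above the line, whereas Eif4e3 lies close to the line. The axes leave out 6 transcripts, 3 of them called.

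The sterol regulators Srebf2, Srebf1 and Scap were lower, a grouping made after their values were seen. Srebf2, the transcription factor of the cholesterol genes (chr15:82147181-82205379, plus strand, GRCm38, 19 exons), had the smallest adjusted p of all. Its footprints were at 313, 265 and 298 CPM in ctrl replicates 1, 2 and 3 and at 105, 111 and 139 CPM in KO, while its mRNA averaged 618 CPM in ctrl and 585 CPM in KO. The footprint to mRNA ratio was 0.508, 0.439 and 0.471 in ctrl and 0.172, 0.199 and 0.239 in KO. The 3 KO values were thus all far below the lowest ctrl value, and TE fell by 1.23 on the log2 scale (SE 0.12, adjusted p = 8.44e-07).

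Srebf1, its relative for the fatty acid genes (chr11:60199089-60220604, minus strand), had ratios of 0.596, 0.596 and 0.655 in ctrl and 0.315, 0.361 and 0.381 in KO. TE fell by 0.81 (SE 0.11, adjusted p = 0.000105). Scap, the sterol sensor that escorts both proteins from the ER, fell by 1.35 (adjusted p = 0.00599). Of 33 measured genes of cholesterol and fatty acid synthesis 4 were lower and none higher. The share called lower was 12.1%, against 2.26% of all transcripts. The list had a median change of -0.11 and 19 below 0.

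MHC class I molecules present peptides at the cell surface, after the transporter Tap1/Tap2 has brought the peptides into the ER and the tapasin Tapbp has helped to load them. Of 14 measured genes of class I presentation and peptide loading, 8 had lower TE (57.1%, against 2.26% of all transcripts) and none higher. The list had a median of -0.53, and 13 of the 14 lay below 0. The replicate differences had medians of -0.95, -0.80 and -0.53. No other list had as large a share of calls, and the list was known from earlier results of these data, so that its count is no independent evidence.

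Tapbp (chr17:33919332-33929292, plus strand) had ratios of 1.37, 1.37 and 1.92 in ctrl and 0.417, 0.523 and 0.674 in KO, with no overlap. TE fell by 1.55 (SE 0.19, adjusted p = 1.15e-05). H2-D1, a heavy chain, had ratios of 2.46, 2.70 and 2.64 in ctrl and 1.26, 1.32 and 1.33 in KO, a decrease of 0.99 on the log2 scale (SE 0.10, adjusted p = 8.44e-07).

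H2-K1, the other classical heavy chain of the list, fell by 0.93 (SE 0.10, adjusted p = 1.48e-06), from ratios between 2.22 and 2.49 to ratios between 1.13 and 1.38. Tap1 fell by 1.22 (adjusted p = 0.0152), Tap2 by 0.86 (adjusted p = 0.0207) and the chaperone Calr by 0.36 (adjusted p = 0.0241). The non-classical heavy chains H2-T23 (-1.20) and H2-Q4 (-0.61) were also lower, as was H2-Q1 outside the list, which fell by 1.43 (SE 0.25, adjusted p = 0.00171) while its mRNA change was 0.48 (adjusted p = 0.0899). Without KO Ribo-seq replicate 2 the call of Tap1 was lost (adjusted p = 0.0591), without KO Ribo-seq replicate 1 that of Tap2 (0.107), without KO RNA-seq replicate 3 that of Calr (0.0746) and without KO RNA-seq replicate 2 that of H2-Q4 (0.0787), and Tap2 and H2-Q4 were not called with a correction for CDS GC content (0.0860 and 0.177). B2m, the light chain of every class I molecule, had a change of -0.07 (SE 0.11, adjusted p = 0.803). Genes of the H2 family are near-identical copies that differ between mouse strains, and reads of N2a cells were mapped to another strain's genome, so that the split of reads among them is uncertain.

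Membrane and secreted proteins enter the ER while they are made, where they are glycosylated and folded. In the list of ER targeting, translocon and N-glycosylation genes, 4 of 57 were lower and none higher (median -0.14, 42 below 0). The share called lower was 7.02%, against 2.26% of all transcripts. Ganab, the catalytic subunit of glucosidase II that trims new N-glycans, had ratios of 1.69, 1.72 and 1.74 in ctrl and 0.825, 1.01 and 0.994 in KO. TE fell by 0.87 (SE 0.11, adjusted p = 3.64e-05). Alg2, a mannosyltransferase of the N-glycan precursor, fell by 0.72 (SE 0.15, adjusted p = 0.00633). The other calls were Srprb, the membrane subunit of the signal recognition particle receptor (-0.69), and Man1b1, an ER mannosidase (-0.73). The call of Srprb was lost without KO Ribo-seq replicate 2 (adjusted p = 0.0514). That of Man1b1 was lost in 8 of 12 fits without 1 library (up to 0.124, without KO Ribo-seq replicate 1) and with the correction for CDS GC content (0.0524).

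Emc1, the largest subunit of the complex that inserts membrane proteins, was the single call among 10 measured members of that complex (8 below 0). Its ratios were 0.806, 0.882 and 1.15 in ctrl and 0.333, 0.462 and 0.411 in KO, and TE fell by 1.26 (SE 0.17, adjusted p = 7.56e-05). Of 22 ER chaperones 4 were lower (18.2%, against 2.26% of all transcripts). Hyou1, an HSP70-like chaperone of the ER, fell by 0.71 (SE 0.12, adjusted p = 0.00171), Creld2 by 0.66 (SE 0.16, adjusted p = 0.0176), Sdf2l1 by 0.58 (adjusted p = 0.0423) and Calr as above. The call of Creld2 was lost without KO Ribo-seq replicate 1 (adjusted p = 0.0503). That of Sdf2l1 was lost in 8 of 12 fits without 1 library (up to 0.1185, without KO RNA-seq replicate 1) and with the correction for CDS GC content (0.218). Of 21 genes of GPI anchor synthesis, Pigs (-0.70, adjusted p = 0.0195) and Pigt (-0.61, adjusted p = 0.0195), both subunits of the transamidase that attaches the anchor, were lower (9.52% of the list). Both calls were lost without KO Ribo-seq replicate 2 (adjusted p = 0.0841 and 0.0591) or without ctrl Ribo-seq replicate 1 (0.0586 and 0.0601), that of Pigt also without KO Ribo-seq replicate 3, and both with the correction for CDS GC content described with the sequence features (0.0776 and 0.0811).

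Lysosomal proteins are also made at the ER. Of 47 genes of the lysosome and the V-ATPase, 5 were lower and none higher (median -0.13, 31 below 0). The share called lower was 10.6%, against 2.26% of all transcripts. Psap, the precursor of the saposins that help to degrade sphingolipids, had ratios of 1.70, 1.72 and 1.57 in ctrl and 1.04, 1.18 and 1.14 in KO, at 1460 to 2835 footprints per library. TE fell by 0.57 (SE 0.10, adjusted p = 0.00162). Gusb, a glucuronidase, fell by 0.78 (SE 0.12, adjusted p = 0.000498), with ratios of 0.829 to 0.960 in ctrl and 0.488 to 0.559 in KO. The other calls were the progranulin gene Grn (-0.66), Atp6ap1, an accessory protein of the V-ATPase (-0.51), and the glucosidase Gaa (-0.42). The call of Atp6ap1 was lost in 3 of 12 fits without 1 library (adjusted p up to 0.0789, without KO Ribo-seq replicate 1). That of Gaa was lost in 6 of 12 (up to 0.107, without the same library) and with the GC correction (0.2145).

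Extracellular matrix and integrin genes showed the same direction. Of 25 measured, 5 were lower (20.0%, against 2.26% of all transcripts) and none higher, with a median of -0.28 and 19 below 0. Lamc1, a laminin chain, had ratios of 0.929, 1.03 and 1.01 in ctrl and 0.530, 0.645 and 0.718 in KO, and TE fell by 0.66 (SE 0.13, adjusted p = 0.00469). Its call was lost in the model of all 4 conditions (adjusted p = 0.135). Col4a2, a basement membrane collagen, fell by 0.72 (SE 0.15, adjusted p = 0.00754). With the GC correction its change was -0.53 and was not called (adjusted p = 0.0742). Lama5, another laminin chain, fell by 1.98 (SE 0.44, adjusted p = 0.0112), from ratios of 0.123 to 0.238 to ratios of 0.0254 to 0.0622. Its call was lost without KO Ribo-seq replicate 1 (adjusted p = 0.0713) and without ctrl Ribo-seq replicate 3 (adjusted p = 0.0687). Agrn (-1.13) and Hspg2 (-1.05), both basement membrane proteoglycans, were lower too. The call of Agrn was lost without KO Ribo-seq replicate 1 (adjusted p = 0.0503) and in both limma-voom fits. That of Hspg2 was lost in 3 of 12 fits without 1 library (up to 0.124, without KO Ribo-seq replicate 1). It was also lost with the GC correction (0.0751) and in both limma-voom fits.

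**Figure D3:**
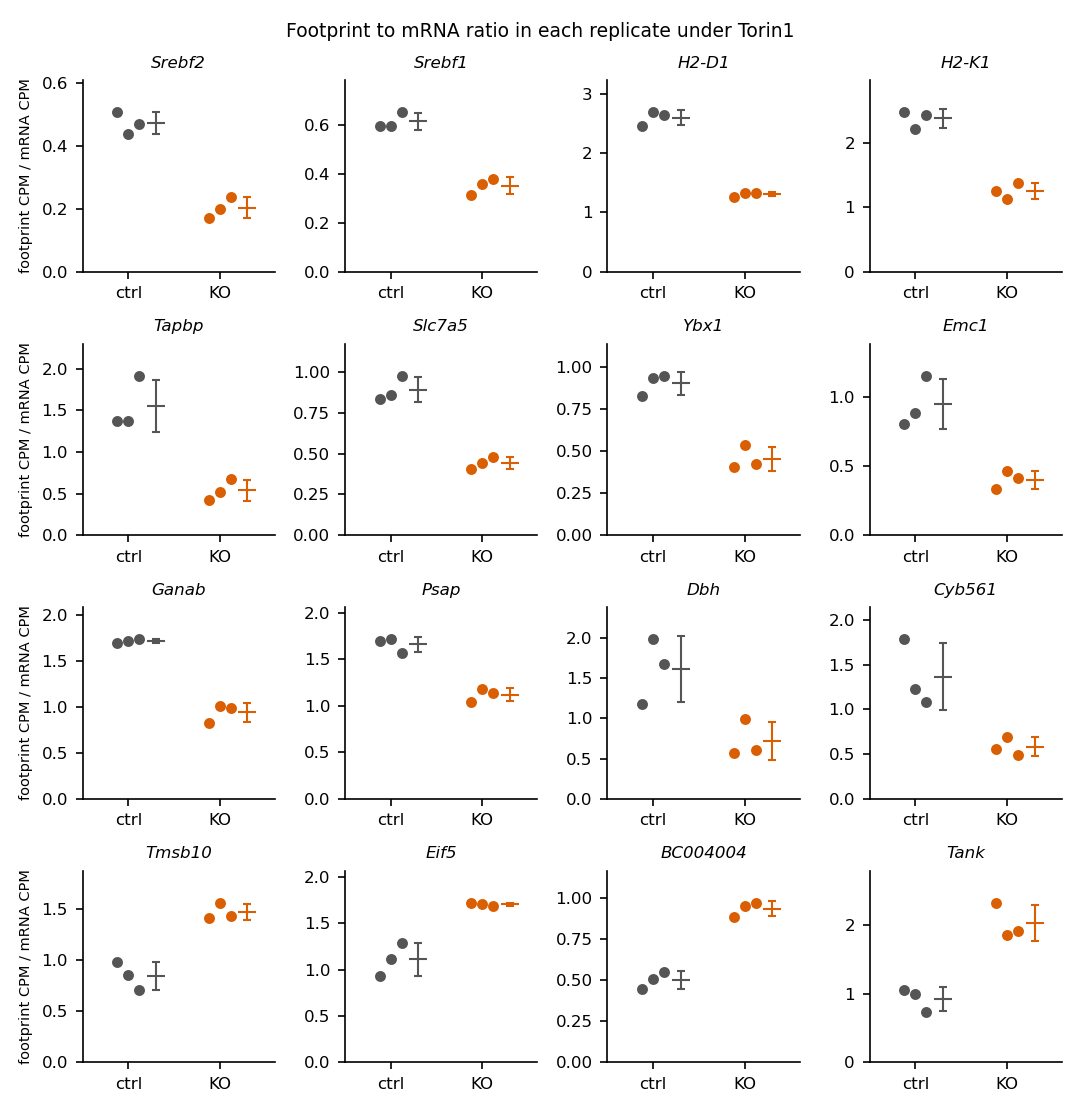
Footprint to mRNA ratio (footprint CPM over mRNA CPM of the same replicate number) of 16 transcripts in ctrl and KO cells under Torin1, with points for replicates 1 to 3 from left to right and a bar for the mean with its SD (n = 3). In every panel the points of KO lie entirely below those of ctrl, or entirely above for Tmsb10, Eif5, BC004004 and Tank.

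Slc7a5, the light chain of the transporter that brings leucine and other large neutral amino acids into the cell, lost TE to a similar degree. Its ratios were 0.838, 0.861 and 0.979 in ctrl and 0.404, 0.441 and 0.482 in KO, and TE fell by 1.02 (SE 0.11, adjusted p = 1.11e-06). It was the only call among 30 measured targets of the stress factor ATF4, whose median was -0.00 with 15 below 0.

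TOP mRNAs are the class of mRNA that mTOR controls most directly. Of 79 ribosomal protein mRNAs 5 were lower (6.33%, against 2.26% of all transcripts) and none higher. The list had a median of -0.16 and 55 below 0, and replicate medians of -0.32, -0.03 and -0.12. The calls were Rpl11 (-0.48, SE 0.11, adjusted p = 0.0173), Rps23 (-0.46, SE 0.11, adjusted p = 0.0244), Rpl12 (-0.42), Rps15 (-0.41) and Rpl32 (-0.39), each smaller than the median of all lower calls. Reads of ribosomal proteins can also come from processed pseudogenes, which the authors removed where annotated. The call of Rpl11 was lost without KO RNA-seq replicate 1 (adjusted p = 0.05005), and that of Rps23 in 6 of 12 fits without 1 library, with an adjusted p of up to 0.0745 without KO RNA-seq replicate 1. Rpl12, Rps15 and Rpl32 were each lost in 8 of 12 such fits, with an adjusted p of up to 0.0822, 0.0837 and 0.120 without the same library, and Rps15 also with the GC correction (0.217).

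Among 18 other TOP mRNAs, Ybx1 alone was lower (median of the list -0.14, 14 below 0). Ybx1 encodes a cold shock protein that coats mRNAs. Its ratios were 0.824, 0.932 and 0.948 in ctrl and 0.404, 0.533 and 0.422 in KO, and TE fell by 1.00 (SE 0.11, adjusted p = 1.40e-06).

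The mitochondrial lists differed in their share of calls and in their medians. TE was lower for 3.92% of complex I genes, 7.02% of complexes II to V and 8.0% of the TCA cycle list. The share was 3.03% for import genes, 1.28% for mitochondrial ribosomal proteins and 0.0% for SLC25 carriers, against 2.26% of all transcripts. Of 51 complex I genes 2 were lower and 40 lay below 0 (median -0.21): the accessory subunits Ndufa9 (-0.46, SE 0.10, adjusted p = 0.0101) and Ndufb8 (-0.59, SE 0.13, adjusted p = 0.0111). Of 57 genes of complexes II to V 4 were lower (median -0.15, 41 below 0). Cox7c, a small subunit of cytochrome c oxidase, fell by 0.71 (SE 0.14, adjusted p = 0.00519), from ratios of 8.67, 7.02 and 6.04 in ctrl to 3.95, 4.95 and 4.40 in KO. Its footprint change was -0.36 (SE 0.10, adjusted p = 0.024) and its mRNA change 0.35 (SE 0.10, adjusted p = 0.0760), so both parts entered the TE change. Cyc1, the cytochrome of complex III, fell by 0.47 (SE 0.11, adjusted p = 0.0136). With the GC correction its change was -0.30 and was not called (adjusted p = 0.110). In the model of all 4 conditions the calls of Ndufa9, Ndufb8, Cox7c and Cyc1 were lost (adjusted p = 0.173, 0.126, 0.141 and 0.186).

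The other calls in these groups were Sdhc, a membrane anchor of complex II (-0.43, SE 0.10, adjusted p = 0.0188), and the ATP synthase subunit Atp5g1 (-0.57). In the TCA cycle list of 25 genes, Pcx, the pyruvate carboxylase, was lower beside Sdhc (-0.60, SE 0.14, adjusted p = 0.0146). The calls of Pcx and Sdhc were both lost without KO Ribo-seq replicate 2 (adjusted p = 0.0550 and 0.0591), and that of Pcx also with the GC correction (0.0627) and in limma-voom with quality weights. The call of Atp5g1 was lost in 7 of 12 fits without 1 library and with the GC correction (0.0900). Mrpl13 was the only call among 78 mitochondrial ribosomal proteins (-0.54, SE 0.12, adjusted p = 0.0139), whose median was -0.04 with 43 below 0. The model of all 4 conditions lost the calls of Mrpl13 (adjusted p = 0.228), Sdhc (0.185), Pcx (0.123) and Atp5g1. Tomm40, the pore of the outer membrane, was the only call among 33 import genes (-0.78, SE 0.16, adjusted p = 0.00652, and 0.0529 with the GC correction), whose median was -0.03 with 18 below 0. None of 33 carriers of the SLC25 family was called (median -0.16, 24 below 0), nor any of 24 genes of glycolysis and the pentose phosphate pathway (median -0.11, 15 below 0).

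Chromaffin-type cells make catecholamines from tyrosine and store them in granules. Of 15 measured genes of this pathway 3 were lower (20.0%, against 2.26% of all transcripts) and none was higher. In this list 13 lay below 0, with a median of -0.36. Dbh, which turns dopamine into noradrenaline, had ratios of 1.18, 1.98 and 1.67 in ctrl and 0.570, 0.988 and 0.602 in KO, with no overlap. TE fell by 1.16 (SE 0.23, adjusted p = 0.00463). The mRNA change of Dbh was -0.41 (SE 0.11, adjusted p = 0.0639). Cyb561, which carries electrons for Dbh into the granule, fell by 1.17 (SE 0.26, adjusted p = 0.0111), from ratios of 1.78, 1.23 and 1.08 to 0.561, 0.695 and 0.489. In the model of all 4 conditions the call of Cyb561 was lost (adjusted p = 0.0524).

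Chgb, a granule protein with 3888 to 5683 footprints per library, fell by 0.46 (SE 0.11, adjusted p = 0.0188). Its call was lost in 5 of 12 fits without 1 library, with an adjusted p of up to 0.0597 without KO Ribo-seq replicate 2. Slc18a2, the transporter that loads the granules, had a change of -0.51 (SE 0.16, adjusted p = 0.0799), and Spr, which makes the cofactor of tyrosine hydroxylase, of -0.79 (SE 0.25, adjusted p = 0.0805, and 0.0398 in DESeq2). Th, the rate-limiting hydroxylase, was too thinly covered to judge, at 4 to 10 footprints per library (-0.36, SE 0.55, adjusted p = 0.797). Ddc (-0.28), Chga (-0.11), Gch1 (-0.05), Qdpr (-0.06), Pcbd1 (-0.24), Pts (0.21), Scg2 (0.27) and Slc18a1 (-1.11, SE 0.79) did not pass the threshold.

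None of the measured cap-binding proteins and their binders was called. Eif4e, which encodes eIF4E1, had ratios of 3.30, 3.36 and 3.49 in ctrl and 3.65, 2.94 and 2.71 in KO, which overlap, and a change of -0.12 (SE 0.12, adjusted p = 0.649). Eif4e2, the cap-binding protein that works in hypoxia, had a change of 0.43 (SE 0.14, adjusted p = 0.104, and 0.0438 in DESeq2). The median of the 6 listed was -0.10, whereas the 3 replicate medians were -0.02, 0.12 and 0.03 and so differ in sign. Eif4ebp1 (-0.08, SE 0.14), Eif4ebp2 (-0.47, SE 0.37) and Eif4enif1 (0.07, SE 0.13) did not differ detectably.

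Of 8 measured genes whose proteins the study linked to eIF4E3, 7 lay above 0 with a median of 0.20, and none was called. The closest was Cdc5l, a splicing factor, at 0.36 (SE 0.11, adjusted p = 0.0891, and 0.0155 in DESeq2). The scaffolds Eif4g1 (0.07, SE 0.11) and Eif4g3 (0.10, SE 0.14), the chaperones Hspa8 (0.17) and Hspa2 (0.24), Xiap (0.39, SE 0.24), Hif1an (0.27) and Angel1 (-0.32, SE 0.38) were the others. In the list of eIF4G, eIF4A and cofactors, Mknk2, a kinase of eIF4E1, was the single call of 10 (-1.49, SE 0.41, adjusted p = 0.0427), from ratios of 0.326, 0.172 and 0.364 to 0.0646, 0.161 and 0.0739. The counts were 14 to 25 footprints per ctrl library, and the call was lost in 8 of 12 fits without 1 library, with an adjusted p of up to 0.162 without KO Ribo-seq replicate 1.

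TE was higher in KO for 62 transcripts. Tmsb10, which binds actin monomers, had ratios of 0.984, 0.849 and 0.711 in ctrl and 1.41, 1.56 and 1.43 in KO, and TE rose by 0.80 (SE 0.12, adjusted p = 0.000260). Eif5, which triggers GTP hydrolysis by eIF2 at the start codon, was the only call among 33 other initiation factors (median 0.11, 11 below 0). Its ratios were 0.931, 1.11 and 1.28 in ctrl and 1.72, 1.70 and 1.69 in KO, a rise of 0.62 (SE 0.11, adjusted p = 0.00171).

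Tank, an adaptor of innate immune signalling, rose by 1.13 (SE 0.23, adjusted p = 0.00606), with ratios of 0.733 to 1.05 in ctrl and 1.85 to 2.33 in KO. BC004004 rose by 0.89 (SE 0.16, adjusted p = 0.00171), with ratios of 0.444, 0.504 and 0.551 in ctrl and 0.882, 0.951 and 0.969 in KO. Tmsb10, BC004004 and Tank were called in each alternative fit and without each library.

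The remaining large increases rested on fewer footprints or on single libraries. Zcchc7, a partner of the nuclear exosome, rose by 1.08 (SE 0.24, adjusted p = 0.0128, and 0.0507 without KO Ribo-seq replicate 1), Sh3bp5l by 1.01 (adjusted p = 0.0203, and 0.0736 without KO Ribo-seq replicate 3) and Pnrc2 by 0.92 (adjusted p = 0.0261, and 0.146 without KO Ribo-seq replicate 1). Ap3m2 rose by 1.30 (SE 0.35, adjusted p = 0.0386), a call lost in 9 of 12 fits without 1 library, with an adjusted p of up to 0.110 without KO Ribo-seq replicate 1. Ucp2, an inner membrane protein of mitochondria, rose by 0.80 (adjusted p = 0.0244, and 0.111 without KO Ribo-seq replicate 1). Tuba4a, a tubulin that shares sequence with its family, had the largest increase among the calls, 2.27 (SE 0.54, adjusted p = 0.0192), from ratios of 1.47, 0.590 and 0.321 to 1.88, 4.31 and 4.64. It had 2 to 17 footprints per library, its mRNA fell by 0.96 (adjusted p = 0.0272), and without KO Ribo-seq replicate 2 the call was lost (adjusted p = 0.0928).

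Immediate early genes had the highest median of the lists, 0.25, with 3 of 19 below 0 and 2 calls. These were 10.5% of the list, against 0.59% of all transcripts called higher. Ier2 rose by 0.59 (SE 0.14, adjusted p = 0.0152) and Egr1, a zinc finger factor, by 0.63 (SE 0.17, adjusted p = 0.0325). Without KO Ribo-seq replicate 2 neither was called (adjusted p = 0.0579 and 0.123). Of 295 numbered zinc finger genes, 204 lay above 0 with a median of 0.18. Zfp68 (0.68, SE 0.17, adjusted p = 0.0217) and Zfp958 (0.71, SE 0.18, adjusted p = 0.0275) were called, 0.678% of the list against 0.59% of all transcripts. With the GC correction neither was (adjusted p = 0.0635 and 0.140), and in fits without 1 library they were lost in 5 of 12 (up to 0.0744, without ctrl Ribo-seq replicate 1) and 6 of 12 (up to 0.0841, without KO Ribo-seq replicate 2).

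Lists of cell division genes had single calls or none, with medians above 0. Of 59 spindle checkpoint and kinetochore genes Knl1 was called (0.51, SE 0.13, adjusted p = 0.0275), with a median of 0.14 and 43 above 0, and of 40 kinesin and dynein genes Dctn5 (0.61, SE 0.15, adjusted p = 0.0256; median 0.16, 31 above 0). The call of Knl1 was lost with the GC correction (adjusted p = 0.186) and in 5 of 12 fits without 1 library (up to 0.0885, without ctrl Ribo-seq replicate 1), and that of Dctn5 in 7 of 12 (up to 0.0796, without KO Ribo-seq replicate 2). None of 46 replication genes, 38 SR and hnRNP proteins, 71 chromatin regulators or 47 genes of the mTOR complexes and their regulators was called. Hspa4, a cytosolic chaperone, rose by 0.46 (SE 0.10, adjusted p = 0.0112) as the single call among 35 heat shock chaperones. Its call was lost in the model of all 4 conditions (adjusted p = 0.185).

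The largest decreases by size were in thinly covered transcripts. Man2a2, a Golgi mannosidase, fell by 1.83 (SE 0.36, adjusted p = 0.00508), from ratios of 0.226, 0.198 and 0.194 to 0.0493, 0.0925 and 0.0308, and held its call in each alternative and without each library. The magnesium transporter Cnnm3 fell by 1.50 (adjusted p = 0.00773, and 0.0503 without KO Ribo-seq replicate 1) and the calcium pump Atp2a3 by 1.75 (adjusted p = 0.0203, and 0.0841 without KO Ribo-seq replicate 2). The nuclear receptor Esrra fell by 1.42 (adjusted p = 0.0133, and 0.0719 without KO Ribo-seq replicate 2) and the zinc finger gene Zxdb, which has a close copy, by 2.06 (adjusted p = 0.0299, and 0.0985 without KO Ribo-seq replicate 2). For Slc8a2, a sodium/calcium exchanger, the counts were 7, 16 and 7 footprints in ctrl and 2, 1 and 3 in KO (adjusted p = 0.0244), too few for a size to be given, as was the case for 3 further lower transcripts.

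Single calls stood in other lists. The synthetases Vars (-0.60, SE 0.13, adjusted p = 0.0122) and Kars (-0.45, SE 0.10, adjusted p = 0.0123) were lower among 43 aminoacyl-tRNA synthetases with a median of 0.02. They made up 4.65% of the list, against 2.26% of all transcripts. Vars was not called with the GC correction (-0.42, adjusted p = 0.0811) or without KO Ribo-seq replicate 1 (0.0511). In the model of all 4 conditions neither Vars nor Kars was called (0.21 and 0.129). Of 44 proteasome genes Psmd2 (-0.37, SE 0.09, adjusted p = 0.0270), Psmb6 (-0.40) and the immunoproteasome subunit Psmb8 (-0.60, SE 0.16, adjusted p = 0.0334) were lower (6.82% of the list, median -0.04). Psmd2 lost its call in 5 of 12 fits without 1 library (up to 0.0837, without ctrl RNA-seq replicate 2) and Psmb8 in 8 of 12 (up to 0.107, without ctrl Ribo-seq replicate 3). Psmb6 was lost in 11 of 12 such fits (up to 0.121, without KO RNA-seq replicate 1) and with the GC correction (0.155). Polr1c (-0.52, adjusted p = 0.0256) and Bop1 (-0.41, adjusted p = 0.0461) were lower among 60 nucleolar genes (3.33% of the list) with a median of 0.10. Lower too were Atg9a (-0.88, adjusted p = 0.0340) among 32 autophagy genes, and the neuroendocrine factor Insm1 (-0.97, adjusted p = 0.0471) among 15 neuroblastoma identity genes. In the list of mRNAs known to respond to eIF4E, 16 measured, Ccnd3 was lower (-1.10, adjusted p = 0.0232) and Hif1a higher (0.46, adjusted p = 0.0358). The calls of Polr1c, Bop1, Atg9a, Insm1, Ccnd3 and Hif1a were each lost in 4 to 10 of 12 fits without 1 library, with the highest adjusted p, 0.162, for Atg9a without KO Ribo-seq replicate 1. Of 20 called list members outside the rule, such as Scap, Tap1 and Grn, 17 were lost without at least 1 library and 10 with the GC correction, while Scap, Grn and H2-T23 held without each library.

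**Figure D4:**
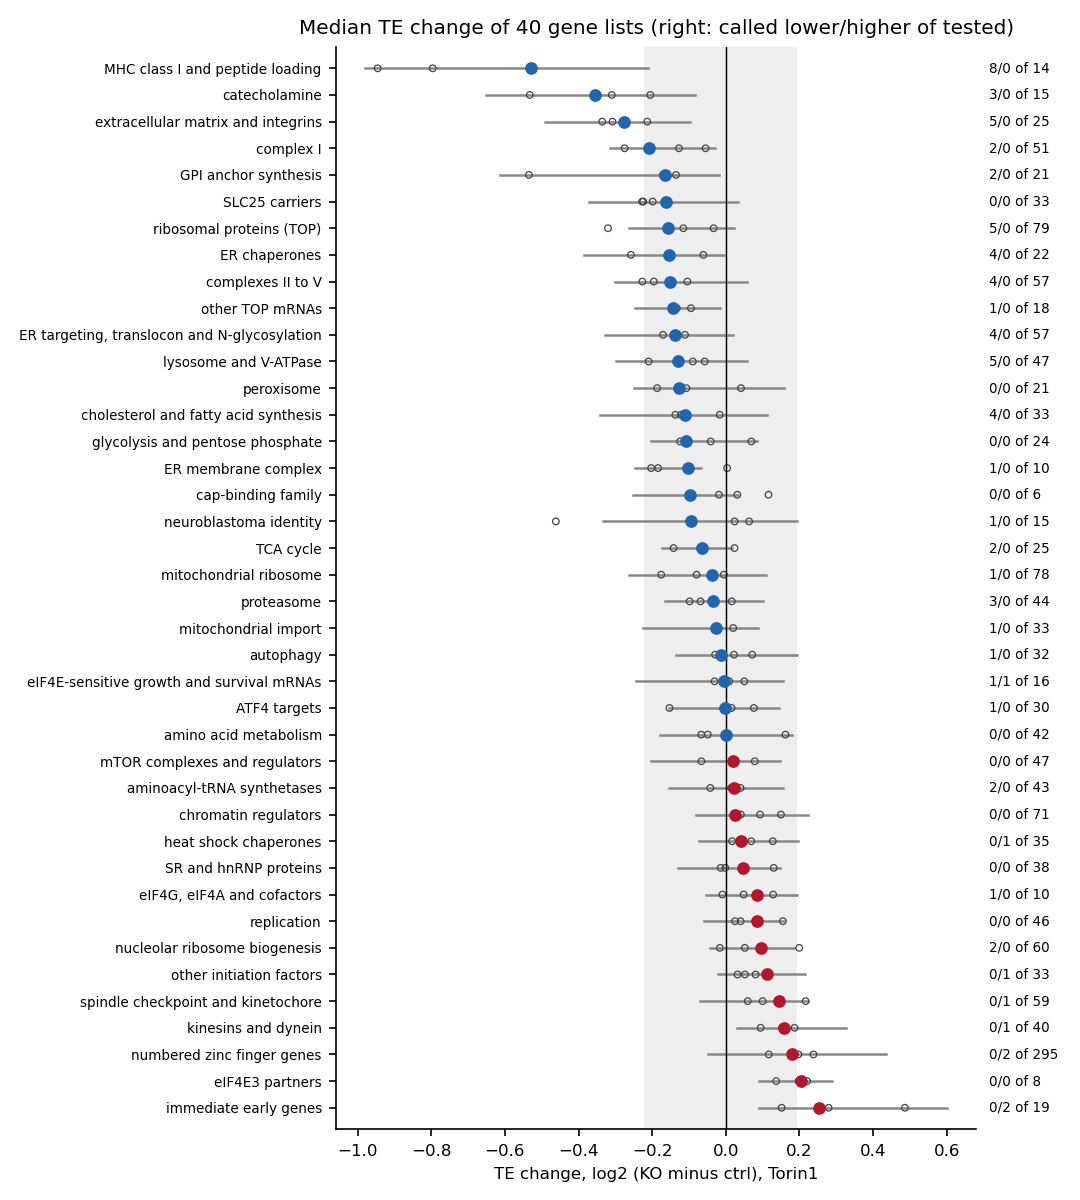
Median TE change (log2, KO minus ctrl, under Torin1) of 40 gene lists as filled points, with the quartiles as a line and the medians of the 3 same-numbered replicate differences as open circles. Numbers at the right give transcripts called lower and higher of those tested, and the grey band spans the quartiles of all 10509 transcripts. Medians run from -0.53 for MHC class I and peptide loading to 0.25 for immediate early genes, and the medians of all but 3 lists (MHC class I and peptide loading, catecholamine, and extracellular matrix on the lower side) and 2 lists (eIF4E3 partners and immediate early genes, on the higher side) lie inside the band.

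The called transcripts were then compared by what their sequence holds, over 10460 transcripts with a complete CDS in the GENCODE M21 annotation of GRCm38. These are descriptions with no test, since transcripts are not replicates. Calls were also more frequent among well covered transcripts. The mean footprint level had a median of 60.4 CPM in lower, 108.6 CPM in higher and 36.1 CPM in all transcripts. The share called lower was 0.574% in the lowest quintile of footprint level and 3.78% in the highest. Whether coverage contributed to the differences in sequence was not tested. Lower transcripts more often encoded a hydrophobic segment, the property by which signal peptides and membrane spans are recognized. A segment was counted where the highest mean Kyte-Doolittle hydropathy, over 9 residues within the first 30 or over 19 residues after them, lay in the top quintile of all transcripts. Of the 237 lower transcripts 171 (72.2%) had at least 1 such segment, against 9 of 62 higher ones (14.5%) and 31.9% of all. TE was lower for 8.10% of transcripts with both segments, 3.46% with the first only, 4.80% with the later only and 0.926% with neither. The median change was -0.16 with both and 0.04 with neither.

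The CDS of lower transcripts was richer in G and C, with a median of 57.5%, against 48.1% in higher ones and 52.7% over all. From the lowest to the highest quintile of CDS GC content, the share called lower went from 0.143 to 5.02% and the share called higher from 1.34 to 0.239%. The Ribo-seq libraries of the genotypes also differed along GC as a whole. In the lowest quintile the median level of a library, relative to the mean of its assay, was 0.0664 to 0.133 (log2) in KO Ribo-seq and -0.166 to -0.024 in ctrl Ribo-seq, and in the highest quintile it was -0.150 to -0.034 in KO and 0.0589 to 0.188 in ctrl. In the RNA-seq the genotypes also separated in the lowest quintile, at 0.00857 to 0.0548 in KO and -0.0884 to -0.00448 in ctrl. In the highest quintile the RNA-seq ranges overlapped, at -0.0534 to 0.00679 in KO and -0.0107 to 0.048 in ctrl.

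When this trend was removed from each library, 164 transcripts (1.57%) were lower and 59 (0.563%) higher, and 136 of the 237 lower and 33 of the 62 higher calls were kept, all 299 with the same sign. Of the 164 lower transcripts 72.6% had a hydrophobic segment. Without the correction the share called lower rose with hydrophobic segments within each of the upper 4 quintiles of GC, for instance from 2.19% with neither to 17.3% with both in the highest quintile. With the correction it was 0.511 and 9.42% there, and 0.693 and 1.94% in the lowest quintile. In the list of MHC class I and peptide loading 6 of 8 calls were kept (median -0.41), in the catecholamine list 3 of 3 (median -0.25). Whether the GC trend arose in the cells or in the libraries was not tested.

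**Figure D5:**
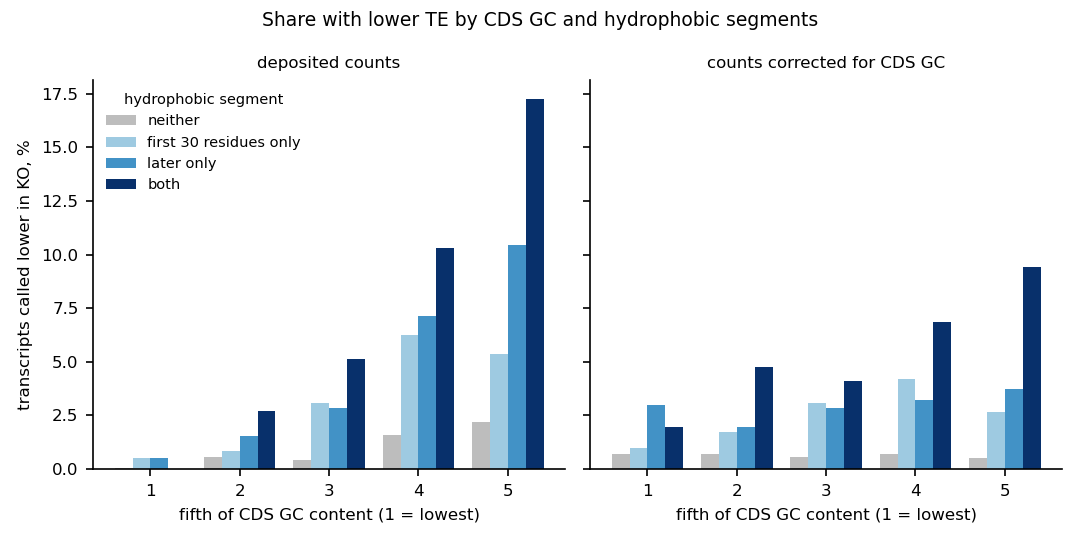
Share of transcripts called lower in KO (%) by quintile of CDS GC content and by hydrophobic segments in the first 30 residues, later, both or neither, from the counts as deposited (left) and after the GC trend of each library was removed (right). In the highest GC quintile the bars run from 2.19% with neither to 17.3% with both on the left and from 0.511 to 9.42% on the right.

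Lower transcripts also had shorter 5′ transcript leaders (5′TL). The median was 129 nt in lower, 197 nt in higher and 173 nt in all transcripts, and 23 of 237 lower transcripts (9.70%) had a leader under 30 nt, against 4.60% of all. From the shortest to the longest quintile of leaders the share called lower was 3.68, 2.49, 1.625, 2.20 and 1.34%. The share called higher was 0.335, 0.669, 0.621, 0.813 and 0.526%, and so was not largest for the longest leaders. With the GC correction the share called lower was 2.53% in the shortest and 1.00% in the longest quintile. Leaders of lower transcripts had a median GC content of 67.3%, those of higher ones 60.5%. A purine at -3 with a G at +4, the core of a strong start context, stood in 56.4% of lower, 48.4% of higher and 47.3% of all transcripts.

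The TISU element is a start context that spans the start codon and serves mRNAs with very short leaders. It was searched at the annotated start codon on the sense strand and was found in 7 of 235 lower transcripts (2.98%), in none of 62 higher ones and in 1.35% of all 10445 with enough sequence. A match describes the sequence and says nothing of its use. The 7 are shown because they are the lower transcripts that hold it, 4 of them behind leaders under 30 nt, with the TISU match in capitals and the bases before it and after it in lower case, read 5′ to 3′ in the transcript from GENCODE M21.
Dnaaf5: ctCAAGATGGCGGCgccggcggaggcggag
Map1s: gcGAAGATGGCGGCagtgatggcggcgccg
Ganab: taCAAGATGGCGGCaatagcggcagtggcg
Sgcb: gcCAAGATGGCGGCagcggcggcggcggcg
Polr1c: cgGAAGATGGCGGCggctcaggcggtggag
Ndufa9: gaGAAGATGGCGGCcgccgtccgctttcgg
Psmb6: agGAAGATGGCGGCcgccttagctgttcgt
The annotated leaders are 24 nt in Dnaaf5 (chr5:139150223-139186510, plus strand), 72 nt in Map1s (chr8:70905932-70917527, plus), 21 nt in Ganab (chr19:8898101-8916672, plus), 77 nt in Sgcb (chr5:73632749-73647790, minus), 91 nt in Polr1c (chr17:46243920-46248054, minus), 13 nt in Ndufa9 (chr6:126821721-126849125, minus) and 11 nt in Psmb6 (chr11:70525386-70527649, plus). Their TE changes run from -1.23 for Dnaaf5 to -0.40 for Psmb6.

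The start contexts of 5 other called transcripts with large changes are shown for contrast, with the start codon in capitals. They were picked after their values were seen, and transcripts with larger changes, such as Slc8a2, Zxdb and Tuba4a, are not shown.
Man2a2: gtcagtATGaagctgaaaaagcaggtgacg
Tapbp: agcaccATGaagcctctgctcctgctcgtc
Lama5: aggaaaATGgcgaagcgcggagggcagctc
Zcchc7: tccataATGtttggtggctatgagactata
Tank: gtgcctATGtctttaaagagacatagtctg
Man2a2 (chr7:80349097-80371375, minus), Tapbp and Lama5 (chr2:180176373-180225859, minus) were lower in KO, and Zcchc7 (chr4:44756568-44932203, plus) and Tank (chr2:61578586-61654171, plus) higher. None of these 5 holds the TISU element, and the leaders of Man2a2 and Tapbp are 493 and 356 nt long.

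The same genotypes in vehicle (DMSO) were compared in the same way to see whether TE differed without Torin1, over 10341 transcripts and with 2 ctrl Ribo-seq libraries. The authors had set ctrl vehicle Ribo-seq replicate 2 aside as an outlier, and it was not analysed here. None passed the threshold in either direction (0.0% called, lowest adjusted p 0.899, edgeR), with 400 at an unadjusted p under 0.05. The vehicle libraries are separate from the Torin1 libraries. Of the transcripts lower under Torin1, 159 of 235 measured in vehicle (67.7%) lay below 0 there, with a median of -0.12, against 51.9% of the uncalled ones. Of the 62 higher ones 50 lay above 0 in vehicle, with a median of 0.22.

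The difference of the genotype effect between Torin1 and vehicle was tested in a model of all 4 conditions over 10443 transcripts. None passed (0.0%, lowest adjusted p 0.183, edgeR), and 599 had an unadjusted p under 0.05. Slc7a5 had a vehicle change of -0.02 (SE 0.20) and a difference of -0.99 (SE 0.22, adjusted p = 0.183). Srebf2 had a vehicle change of -0.25 (SE 0.20) and a difference of -0.97 (SE 0.23, adjusted p = 0.202), and H2-D1 of -0.05 (SE 0.21) and -0.95 (SE 0.23, adjusted p = 0.202). Tmsb10 had about the same change in vehicle, 0.89 (SE 0.21), with a difference of -0.10 (SE 0.23, adjusted p = 0.973), and Dbh a vehicle change of -0.76 (SE 0.22) with a difference of -0.39 (SE 0.32, adjusted p = 0.933). A genotype effect specific to Torin1 was thus not detected for these transcripts at this depth.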

How the data were processed

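RNA-seq and Ribo-seq counts of 12 libraries (3 ctrl and 3 KO replicates with Torin1 in each assay) were used. The authors trimmed adaptors with cutadapt, mapped reads with HISAT2 to mm10, removed rRNA, tRNA and pseudogene reads, aligned the remainder to canonical Ensembl transcripts (bowtie2) and deposited raw counts per CDS (P-sites for the Ribo-seq), without normalization. The deposited tables also hold the authors' fold changes and p-values, and further tables their TE ratios and tests, which were not used. Of the rows deposited, 1522 of 12529 (RNA-seq) and 92 of 10884 (Ribo-seq) did not meet the stated filter (CPM over 1 in all replicates of a condition), and it was applied again.

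TE was tested in 1 edgeR 4.0.16 model (R 4.3.3) of both assays with TMM factors within each assay, the quasi-likelihood F-test of the assay by genotype interaction and Benjamini-Hochberg adjustment over all 10509 transcripts (threshold 0.05). Footprint and mRNA changes came from the same fit. RiboDiff was not used here. Ratios are TMM-scaled footprint CPM over mRNA CPM of the same replicate number. Whether libraries of the 2 assays with the same number share a dish is not given in the sources used here. Precision rests on both assays, with 1289467 to 2132682 counts per Ribo-seq and 17048750 to 28912912 per RNA-seq library. The script was tested on simulated data. Vehicle libraries were fitted alike.

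Genes named are Eif4e3, the cap-binding, eIF4E3 partner and catecholamine genes measured, the 10 largest decreases and increases among calls with a mean of at least 10 footprints in the higher condition and no overlap of ratios, and up to 2 calls per list with the smallest adjusted p. Further members were named after their values were seen. A few genes that the rule covers are not reported here. The comparison, its members and the 40 lists were chosen with earlier results of these data known.

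The replicate number was tried as a block in an alternative fit.

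Other alternatives were DESeq2 1.42.0, limma-voom (limma 3.58.1) with quality weights or cyclic loess, other scalings and filters, a model of all 4 conditions and fits without each library. A correction for CDS GC content (a loess curve per library, span 0.3, 10473 transcripts with an annotated CDS) was added after the data were seen. Lengths, GC content and hydropathy came from GENCODE M21 on GRCm38, matched by transcript identifier (10473 of 10509, of which 10460 complete), with Python 3.11.15, numpy 2.4.6, pandas 2.3.3 and matplotlib 3.10.9.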

Additional observations from a re-analysis of the deposited data

How the results depend on the processing

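The count of transcripts with a TE change (237 lower and 62 higher) was 406 and 181 (587 in all) with DESeq2, 144 and 36 (180) with limma-voom and quality weights, 148 and 29 (177) with cyclic loess, 370 and 171 (541) with the replicate block within each assay, 371 and 184 (555) with the block and the GC correction together, and 65 and 8 (73) in the model of all 4 conditions. The block shared by both assays gave 107 higher calls. Scaling by library size only, median-ratio factors, no filter, a mean of at least 10 footprints and the GC correction alone kept each count within 1.5 times. Fits without 1 library gave 178 to 315 calls (142 to 249 lower, 28 to 66 higher) and fits without both libraries of a replicate 111 to 208. These last were 148, 190 and 171 without ctrl replicates 1, 2 and 3 (129, 153 and 142 lower, 19, 37 and 29 higher) and 111, 142 and 208 without KO replicates 1, 2 and 3 (89, 117 and 176 lower, 22, 25 and 32 higher). Of the 299 calls, 293 were shared with DESeq2, 299 with the block within each assay, 169 with the GC correction and 73 with the model of all 4 conditions. Of the 68 calls under the naming rule, 19 held in every alternative and without every single library (Srebf2, H2-D1, Slc7a5, Ybx1, H2-K1, Tapbp, Ganab, Emc1 and Srebf1 among them), 41 were lost in the model of all 4 conditions, 19 with the GC correction and 22 with quality weights, and none was lost with the block or changed sign. The labels give replicates as different passages but tie no ctrl library to a KO library, so that the samples share only a number. Deviations from the group mean correlated at r = 0.0289 to 0.261 between RNA-seq libraries of the same number (others -0.321 to 0.0766) and at -0.0442 to 0.0317 between Ribo-seq libraries (others -0.0413 to 0.0346), and not every library correlated best with its own number. With the block Slc18a2 (adjusted p = 0.0157, edgeR) and Cdc5l (0.0419) were called as well. List medians moved by at most 0.211 with the GC correction and 0.0192 with library size only. Vehicle TE and the difference between Torin1 and vehicle had 0 calls under every alternative run. The cause of these differences was not tested. Ribo-seq depth limits the size of change that can be seen in transcripts with few footprints.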
